A study of Mus musculus with 12 samples.

Results

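The interferon-gamma-induced GTPases described here are 10 mouse genes chosen by their symbols, the guanylate-binding proteins *Gbp2*, *Gbp3*, *Gbp6* and *Gbp7* and the immunity-related GTPases *Irgm1*, *Irgm2*, *Igtp*, *Iigp1*, *Ifi47* and *Tgtp2*. They were found in the deposited expression table by matching its Ensembl IDs to GENCODE M21, and 9 of the 10 had a row among the 26409 genes listed. *Gbp6* had no matched row and was not analysed here. All 9 passed the filter on low values (an average of 0.1 TPM or more), as did 18197 genes in all. TPM is an abundance that takes the length of each transcript into account and gives libraries similar totals, so levels can be compared between genes.

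Bulk RNA sequencing of the hippocampus covered 12 libraries, with 3 libraries for each sex of WT and of *Dek* cKO mice, the latter labelled DEK KO. WT animals carry an intact *Dek* gene, which encodes a chromatin-binding protein. The cKO animals carry a germline deletion of *Dek*, made by crossing mice with loxP sites around exons 3 and 4 to the CMV-Cre line on the C57Bl/6 background and then breeding the Cre transgene out, so the deletion is not limited to 1 cell type. All mice were between 6 and 12 months old and had been through behavioural assays. The labels number the libraries and do not name animals, so p-values measure the spread between these libraries. *Dek* was at 48.3 ± 2.58 TPM (SD, n = 6) in WT and 7.23 ± 1.32 TPM (SD, n = 6) in cKO libraries. Markers of hippocampal neurons were present throughout, with a summed level of 8 genes between 2405 and 2966 TPM.

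Features of 3 kinds bear on the comparisons. The library names of female WT begin with C57 and those of the other 9 libraries with CMV, so comparisons with female WT mix the group with the name prefix. The Y-linked gene *Eif2s3y* went against the labelled sex in 2 libraries, at 72.7 TPM in female cKO replicate 3 and 0.111 TPM in male cKO replicate 1. Male cKO replicate 3 stood apart in general expression, with 597 of 14160 genes over 2-fold away from the median library, against 189 to 365 in the others. Whether the labels of the 2 libraries with conflicting Y-linked expression were exchanged was not tested, and groups follow the labels throughout. Counts over the members are given with and without these libraries.

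Interferon gamma is a cytokine released mainly by T cells and NK cells. It binds the receptor made of Ifngr1 and Ifngr2, the kinases Jak1 and Jak2 pass the signal on, and transcription is switched on through GAS elements in target promoters and through ISRE elements, which the induced factor Irf1 binds. Guanylate-binding proteins (GBPs) and immunity-related GTPases (IRGs) are among the most strongly induced targets in mouse cells, microglia and astrocytes included. Effector IRGs and GBPs assemble on the vacuoles of parasites such as *Toxoplasma gondii* and on bacteria, guided by the ATG8 conjugation machinery of autophagy, and the regulatory IRGs (Irgm1, Irgm2 and Igtp) guard the cell's own membranes from them.

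Of the 9 genes 8 lie in clusters. In GENCODE M21 (GRCm38, the assembly also called mm10), *Gbp7*, *Gbp3* and *Gbp2* follow each other on chromosome 3 between 142530342 and 142638008. The IRG genes *Irgm1*, *Tgtp2* and *Ifi47* lie on chromosome 11 between 48861968 and 49096974, and *Igtp* and *Irgm2* on the same chromosome between 58199556 and 58222782, where the annotated span of *Irgm2* begins inside *Igtp*. *Iigp1* lies on another chromosome.

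Promoters are shown first because the elements through which interferons are known to act can be looked for in them. RefSeq (GRCm38.p6) gave a promoter of 300 bases, 250 before and 50 after the start site, for 8 members and for neither *Gbp6* nor *Iigp1*. The stretch from 110 to 11 bases before the start site is printed below from 5′ to 3′ on the gene's strand, with matches to the ISRE core (GAAA repeated after 2 bases of any kind) or the GAS core (TTCNNNGAA), each searched on both strands, in capitals. The windows are chr3:142620553-142620652 (+) for *Gbp2*, chr3:142559934-142560033 (+) for *Gbp3*, chr3:142530226-142530325 (+) for *Gbp7*, chr11:48871431-48871530 (-) for *Irgm1*, chr11:58214867-58214966 (+) for *Irgm2*, chr11:58199446-58199545 (+) for *Igtp*, chr11:49064223-49064322 (-) for *Tgtp2* and chr11:49076477-49076576 (+) for *Ifi47*.
Gbp2: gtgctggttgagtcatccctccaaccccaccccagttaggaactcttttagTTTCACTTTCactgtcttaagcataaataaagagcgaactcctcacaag
Gbp3: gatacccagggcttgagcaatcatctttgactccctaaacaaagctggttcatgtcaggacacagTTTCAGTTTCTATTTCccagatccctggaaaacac
Gbp7: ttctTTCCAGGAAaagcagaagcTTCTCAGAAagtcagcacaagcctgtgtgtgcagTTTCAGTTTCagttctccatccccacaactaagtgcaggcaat
Irgm1: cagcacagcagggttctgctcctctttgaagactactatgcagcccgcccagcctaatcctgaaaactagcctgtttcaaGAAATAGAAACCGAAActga
Irgm2: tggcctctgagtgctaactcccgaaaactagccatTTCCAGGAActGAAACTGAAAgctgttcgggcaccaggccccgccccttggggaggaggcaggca
Igtp: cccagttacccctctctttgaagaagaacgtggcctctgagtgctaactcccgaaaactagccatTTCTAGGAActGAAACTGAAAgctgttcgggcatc
Tgtp2: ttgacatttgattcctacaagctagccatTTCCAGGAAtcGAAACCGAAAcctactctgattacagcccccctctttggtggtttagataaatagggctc
Ifi47: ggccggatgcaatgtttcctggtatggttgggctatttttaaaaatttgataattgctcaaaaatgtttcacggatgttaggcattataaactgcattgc

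An ISRE core was present in the promoters of 7 of the 8 members, against 3.44% of the 32851 promoters of this length in the table. A GAS core was present in 4 of the 8 (*Gbp7*, *Igtp*, *Irgm2* and *Tgtp2*), against 8.3% of all promoters, and these 4 held both, against 0.454%. Neither core was found in the *Ifi47* window, which says only that these letters are not in it. *Gbp3* has another RefSeq start site whose promoter held neither. In the GBPs the ISRE core read on the opposite strand, at -59 in *Gbp2*, at -45 and -39 in *Gbp3*, where 2 matches overlap, and at -53 in *Gbp7*. In the IRGs it read on the gene's strand, at -30 and -24 in *Irgm1*, again overlapping, at -64 in *Irgm2*, at -34 in *Igtp* and at -70 in *Tgtp2*. *Gbp7* alone had 2 GAS cores, at -106 and -87. In *Igtp*, *Irgm2* and *Tgtp2* the GAS core ended 2 bases before the ISRE core. This joint arrangement was noticed in the windows above and then searched on both strands, and it occurred in 5 of the 32851 promoters (0.0152%), those of *Gm12185*, *Igtp*, *Irgm2*, *Tgtp1* and *Tgtp2*. The promoters of *Igtp* and *Irgm2* share an identical stretch of 61 bases, so they are not independent examples, and no pair of the other members shared more than 17. The promoters of *Tgtp1* and *Gm12185* were not compared in this way. Transcripts of *Tgtp2* share 89.2% of their 31-base words with *Tgtp1* and 7.81% with *Gm12185*, so these may not be independent examples either.

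**Figure D1:**
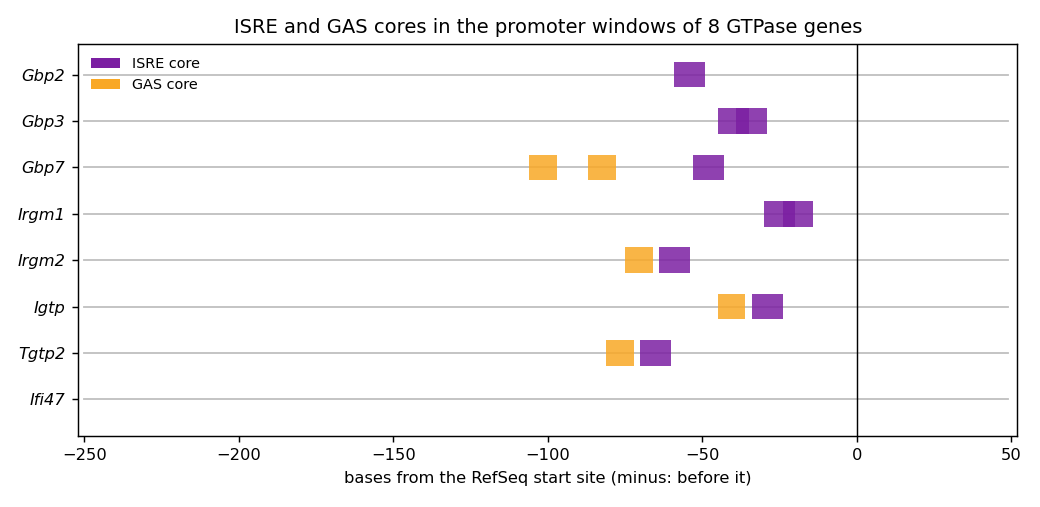
Positions of ISRE cores (purple) and GAS cores (yellow) in the 300-base RefSeq promoters of 8 GTPase genes, as bases from the start site (vertical line). In *Igtp*, *Irgm2* and *Tgtp2* a GAS core stands 2 bases before the ISRE core, and *Ifi47* shows neither.

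All 9 genes were detected at low levels in WT hippocampus, and none was at 0 in any library. *Irgm1* was the most abundant, at 7.44 ± 0.93 TPM (SD, n = 6 WT libraries), above 46.0% of the genes tested. *Gbp3* (3.31 ± 0.893), *Igtp* (3.06 ± 0.50), *Gbp2* (2.52 ± 0.633) and *Gbp7* (2.47 ± 0.284) followed. *Irgm2* (1.77 ± 0.248), *Tgtp2* (1.59 ± 0.954), *Iigp1* (1.01 ± 0.237) and *Ifi47* (0.869 ± 0.303, above 21.2% of genes) were lowest. Only the steps from *Irgm1* to *Gbp3* and from *Gbp7* to *Irgm2* separated all 6 WT values of neighbours in this order, and the other neighbours overlapped. Between male and female WT no member passed the nominal rule (unadjusted p under 0.05 and a fold of at least 1.5, which 0.637% of genes passed as higher and 1.12% as lower), with log2 differences between -0.44 for *Tgtp2* and 0.06 for *Gbp7*. Sex and name prefix cannot be told apart in that comparison. *Ifng* itself was listed at 0 in 10 of 12 libraries, with 0.153 TPM in male WT replicate 2 and 0.0688 TPM in male cKO replicate 3.

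The question of the main comparison was whether loss of *Dek* goes with a different level of these GTPases. The fitted log2 fold change of cKO against WT was above 0 for 9 of 9 members, where 55.8% of all genes tested were above 0, and the median was 0.40, against 0.016 over all genes. No member passed the adjusted rule (adjusted p under 0.05 and a fold over 1.2), which 0.148% of all genes passed. *Igtp* and *Ifi47*, 2 of the 9, passed the nominal rule as higher, which 2.09% of all genes did, and 0 passed it as lower (0.594% of all genes). The members share an inducer and, in part, sequence, so they are not 9 separate readings of the genotype. In none of the 9 did the 6 cKO values all lie above the 6 WT values (0.572% of all genes). In bulk tissue, more cells that make a transcript and more transcript per cell cannot be told apart.

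**Figure D2:**
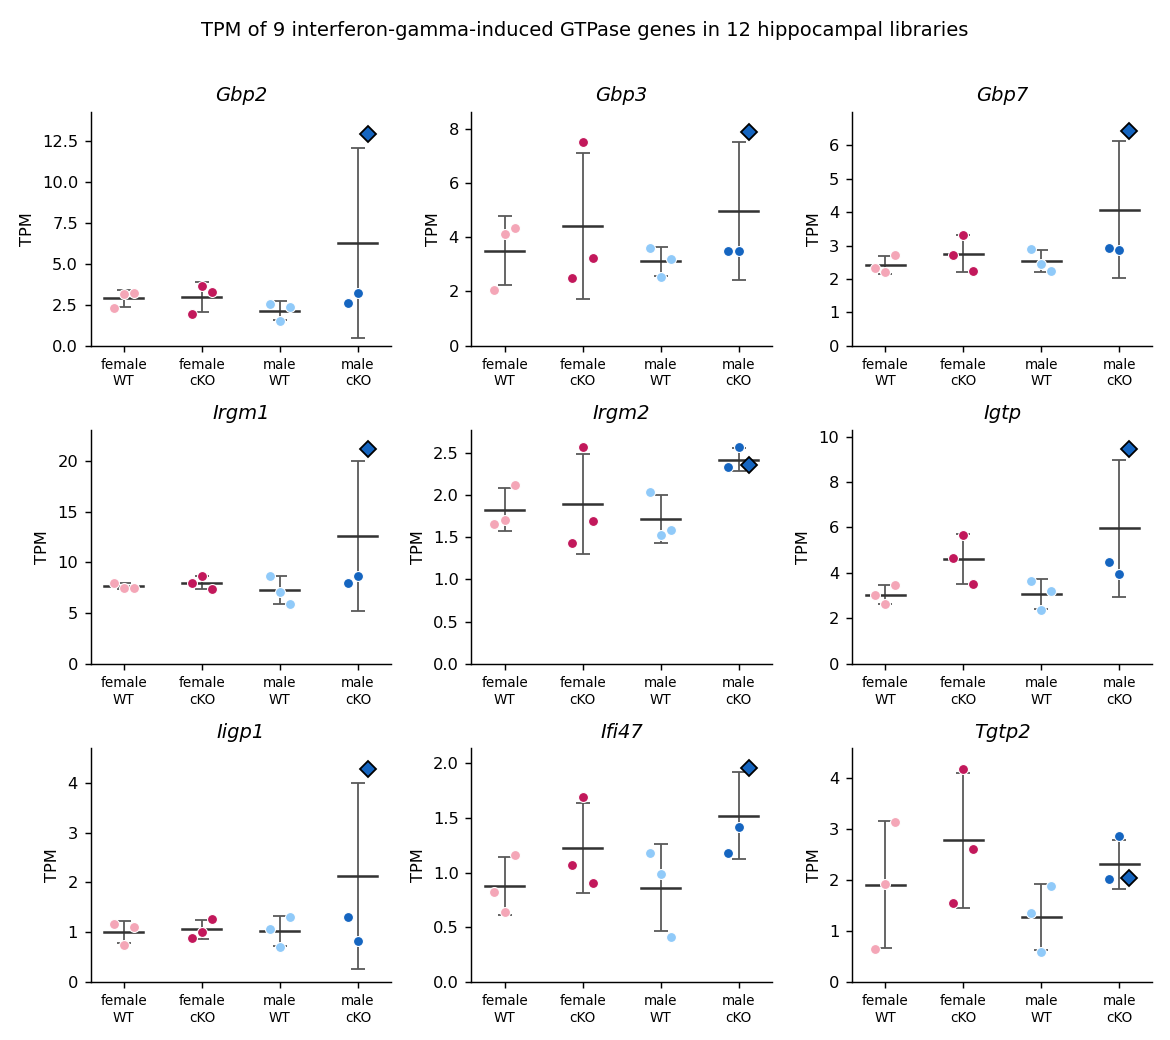
TPM of the 9 GTPase genes in each of the 12 libraries (points, 3 per group, with the group mean and SD as bars), and male cKO replicate 3 as a diamond. That library is the highest of all 12 for 7 of the 9 genes, and for *Irgm2* and *Tgtp2* it lies within its group.

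*Igtp*, a regulatory IRG of the endoplasmic reticulum membrane, had the smallest adjusted p of the members. Its level was 3.03, 2.62 and 3.47 TPM in female WT, 4.67, 5.67 and 3.49 in female cKO, 3.66, 2.35 and 3.21 in male WT, and 4.50, 3.97 and 9.44 in male cKO. Within each labelled sex all cKO libraries were above all WT libraries, as for 7.45% of all genes in females and 5.91% in males. The same held without the 2 libraries of conflicting Y-linked expression (18.4% and 11.1% of genes). The lowest female cKO value (3.49 TPM, replicate 3) was close to the highest female WT value (3.47 TPM). That cKO library carries Y-linked expression, and counted as male it would lie within the male WT range. Over both sexes 5 of 6 cKO libraries exceeded the highest WT value. The log2 fold change was 0.71 ± 0.21 (SE; limma, adjusted p = 0.417), a 1.63-fold difference with p = 0.00433 in an exact two-sided permutation test of the 6 against 6 libraries, run once for each of the 9 members. Without male cKO replicate 3 it was 0.53 (adjusted p = 0.392; exact permutation p = 0.00866), and it then missed the fold of the nominal rule. *Igtp* shares 15.9% of its 31-base words with *Irgm2*, so part of its signal may be split between the rows.

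The other regulatory IRGs differed less. *Irgm1*, which acts at the Golgi and lysosomes and keeps effector IRGs inactive, was at 7.99, 7.51 and 7.42 TPM in female WT and at 7.97, 8.61 and 7.33 in female cKO. In males it was at 8.69, 7.11 and 5.90 TPM in WT and at 8.001, 8.64 and 21.1 in cKO. A single library thus exceeded the WT range, with 2.60 times the mean of the other 5 cKO libraries. The log2 fold change of *Irgm1* was 0.36 ± 0.22 (SE, adjusted p = 0.852), and 0.13 without that library. *Irgm2* was at 1.66, 1.70 and 2.13 TPM in female WT, 1.44, 2.57 and 1.69 in female cKO, 2.04, 1.53 and 1.58 in male WT and 2.33, 2.58 and 2.36 in male cKO. It overlapped between genotypes in females and did not overlap in males, with a log2 fold change of 0.25 ± 0.17 (SE, adjusted p = 0.864) over both sexes.

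Effector IRGs load onto parasite vacuoles and break them. *Iigp1*, the best studied of them, was between 0.690 and 1.30 TPM in 11 libraries and at 4.27 TPM in male cKO replicate 3. Its log2 fold change was 0.39 ± 0.34 (SE, adjusted p = 0.915), and 0.07 without that library. *Ifi47* was at 0.826, 0.640 and 1.16 TPM in female WT, 1.07, 1.69 and 0.907 in female cKO, 1.18, 0.990 and 0.413 in male WT and 1.18, 1.42 and 1.96 in male cKO. Of its 6 cKO libraries, 4 lay above the highest WT value. The log2 fold change of *Ifi47* was 0.63 ± 0.26 (SE, adjusted p = 0.676; exact permutation p = 0.0346), and without male cKO replicate 3 it was 0.52 (exact permutation p = 0.0693).

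*Tgtp2*, an effector IRG, had the largest fitted difference. It was at 0.647, 1.93 and 3.14 TPM in female WT, 1.55, 4.18 and 2.60 in female cKO, 1.34, 0.588 and 1.87 in male WT and 2.01, 2.86 and 2.04 in male cKO. The WT libraries spread over a wide range, and 1 cKO library exceeded it. The log2 fold change was 0.79 ± 0.37 (SE, adjusted p = 0.76; exact permutation p = 0.0887), and 0.83 without male cKO replicate 3, in which *Tgtp2* was not high. Reads of *Tgtp2* are hard to place, since 89.2% of its 31-base words also occur in its neighbour *Tgtp1*. When both rows were summed, WT libraries lay between 1.38 and 3.94 TPM and cKO libraries between 2.77 and 8.41, and the log2 fold change was 0.68 (adjusted p = 0.694), so that the summed row passed the nominal rule that *Tgtp2* alone missed.

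Of the GBPs, large GTPases of the dynamin superfamily that coat pathogen membranes, *Gbp2* was at 2.31, 3.17 and 3.19 TPM in female WT, 1.93, 3.67 and 3.29 in female cKO, 2.57, 1.49 and 2.37 in male WT and 2.61, 3.24 and 12.97 in male cKO. Male cKO replicate 3 held 4.40 times the mean of the other 5 cKO libraries, the largest such ratio among the members. The log2 fold change was 0.58 ± 0.36 (SE, adjusted p = 0.854) with it and 0.23 without it. *Gbp3* was high in that library (7.89 TPM) and in female cKO replicate 2 (7.496 TPM), against 2.05 to 4.35 TPM in the other 10, and its log2 fold change was 0.40 ± 0.29 (SE, adjusted p = 0.883), and 0.22 without male cKO replicate 3. *Gbp7* was between 2.19 and 3.32 TPM in 11 libraries and at 6.44 TPM in male cKO replicate 3, with a log2 fold change of 0.37 ± 0.21 (SE, adjusted p = 0.839), and 0.17 without that library. The 6 members other than *Igtp*, *Ifi47* and *Tgtp2* gave exact permutation p-values between 0.0823 and 0.353.

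**Figure D3:**
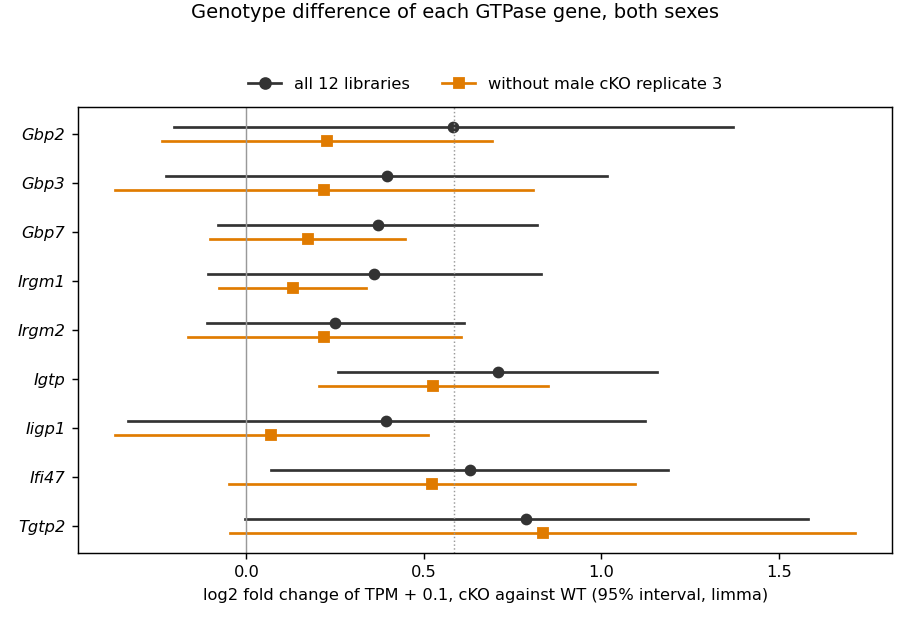
Log2 fold change of each GTPase gene, cKO against WT in both sexes, with the 95% interval from limma, for all 12 libraries (circles) and without male cKO replicate 3 (squares), and a dotted line at a 1.5-fold difference. Every point is above 0, and the points of *Gbp2*, *Irgm1*, *Iigp1* and *Gbp7* move most toward 0 when that library is left out.

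Male cKO replicate 3 thus carried a large share of the difference. It was the highest of 12 libraries for 7 of 9 members, where it was the highest for 19.5% of all genes tested. It exceeded 2 times the mean of the other 5 cKO libraries for 5 of 9 members (*Gbp2*, *Gbp7*, *Irgm1*, *Igtp* and *Iigp1*), as for 5.06% of all genes. The summed level of the members was 68.5 TPM there, 38.2 TPM in female cKO replicate 2, between 24.7 and 29.9 TPM in the other 4 cKO libraries and between 19.7 and 28.7 TPM in WT. Without male cKO replicate 3, 9 of 9 members remained above 0 (56.1% of all genes) with a median of 0.22 (0.017 over all genes), and 0 passed the nominal rule (2% of all genes). Among the CMV-named libraries alone, 6 cKO against 3 male WT, 9 of 9 were above 0 (57.2% of genes) with a median of 0.45, and *Igtp* and *Tgtp2* passed the nominal rule (1.97% of genes). With male cKO replicate 3 left out there too, the median was 0.27 and *Tgtp2* alone passed (2.13% of genes).

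In females no member passed the nominal rule (1.85% of genes did), 8 of 9 fold changes were above 0 (54.3% of genes) and the median was 0.17. *Igtp* was the only member whose female cKO values all lay above the female WT values, as 7.45% of all genes did. In males *Gbp2*, *Igtp* and *Irgm1* passed the nominal rule (2.02% of genes), with log2 fold changes of 1.17, 0.85 and 0.66 (adjusted p = 0.88 for each). All 9 male fold changes were above 0 (55.2% of genes), with a median of 0.72. No member passed the adjusted rule within a sex, which 0.0165% of genes did in either. The male cKO values of *Gbp2*, *Igtp*, *Irgm2*, *Ifi47* and *Tgtp2*, 5 of 9, lay above all male WT values (5.91% of all genes). Without the 2 libraries of conflicting Y-linked expression it was the same 5 in males (11.1% of genes) and *Igtp* in females (18.4%). Female cKO replicate 3, which carries Y-linked expression, was within the male WT range for *Igtp* (3.49 TPM), *Irgm2* (1.69 TPM) and *Ifi47* (0.907 TPM), so that these 3 would overlap if it were counted as male. Without male cKO replicate 3 the male median was 0.46, and 0 members passed (1.68% of genes). The male count was also 0 without male WT replicate 2, which was the lowest library for 4 members, and 5 without male WT replicate 1, male cKO replicate 1 or male cKO replicate 2. Without the 2 libraries whose Y-linked genes go against their labels, 4 members passed in males (2.28% of genes) and 0 in females (2.76%), and over both sexes *Igtp* and *Ifi47* passed (2.18%).

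The difference in genotype effect between the sexes was itself tested. The interaction (female effect minus male effect) was below 0 for 9 of 9 members (48.7% of all genes were above 0), between -1.17 for *Gbp2* (95% interval -2.72 to 0.38, adjusted p = 0.966) and -0.27 for *Tgtp2*. No member passed the nominal rule, which 1.08% of genes passed as higher and 1.32% as lower. Without the 2 libraries of conflicting Y-linked expression it was also below 0 for 9 of 9, between -1.69 and -0.25. For *Gbp3*, *Igtp* and *Iigp1* the direction turned when male cKO replicate 3 was left out.

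Upstream of the GTPases, the chains of the interferon-gamma receptor differed little. *Ifngr1* was at 14.1 ± 1.49 TPM in WT and 14.7 ± 1.13 TPM in cKO (SD, n = 6 each), a log2 difference of 0.06 (95% interval -0.11 to 0.24), and *Ifngr2* at 36.6 ± 2.31 and 37.1 ± 2.47 TPM, a log2 difference of 0.02 (-0.10 to 0.14). *Jak1* (0.04, -0.10 to 0.19) and *Jak2* (-0.05, -0.23 to 0.12) gave intervals of similar width. *Tyk2* was listed at 0 in 10 of 12 libraries, with at most 1.42e-07 TPM in the others, and was left out by the filter.

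*Irf1*, the factor that binds ISRE elements, was at 11.6, 13.997 and 11.8 TPM in female WT, 12.5, 13.04 and 12.1 in female cKO, 10.8, 12.4 and 11.7 in male WT and 14.9, 16.3 and 16.9 in male cKO. The libraries labelled male cKO were the highest of the 12, and the groups labelled female overlapped. Among them male cKO replicate 1 (14.9 TPM) lacks Y-linked expression, and female cKO replicate 3 (12.1 TPM) carries it. The log2 fold change of *Irf1* was 0.24 (adjusted p = 0.673) over both sexes, 0.01 in females and 0.46 in males (adjusted p = 0.397). Without male cKO replicate 1 and female cKO replicate 3 it was 0.27 over both sexes and 0.51 in males. With all libraries as labelled, its interaction (female effect minus male effect) was -0.45 (95% interval -0.75 to -0.15, adjusted p = 0.966). *Irf2*, a repressor at ISRE elements, with a log2 difference of 0.18, and *Irf9*, the DNA-binding part of the type I interferon factor, with 0.27, also had an unadjusted p under 0.05, as 4.84% of all genes did with higher values in cKO. The fold of each of these 3 was below that of the nominal rule. Of 11 signalling genes tested 0 passed it, with a median of 0.18, and of 8 ligand and receptor genes 0 passed, with a median of 0.11. Among these 8 the receptor gene *Il10rb* alone had an unadjusted p under 0.05. Its log2 difference was 0.29 (limma, adjusted p = 0.486), and 0.35 without male cKO replicate 3. Of 8 inhibitors 0 passed, with a median of -0.00, among them *Socs1* at between 0 and 1.17 TPM over the 12 libraries.

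**Figure D4:**
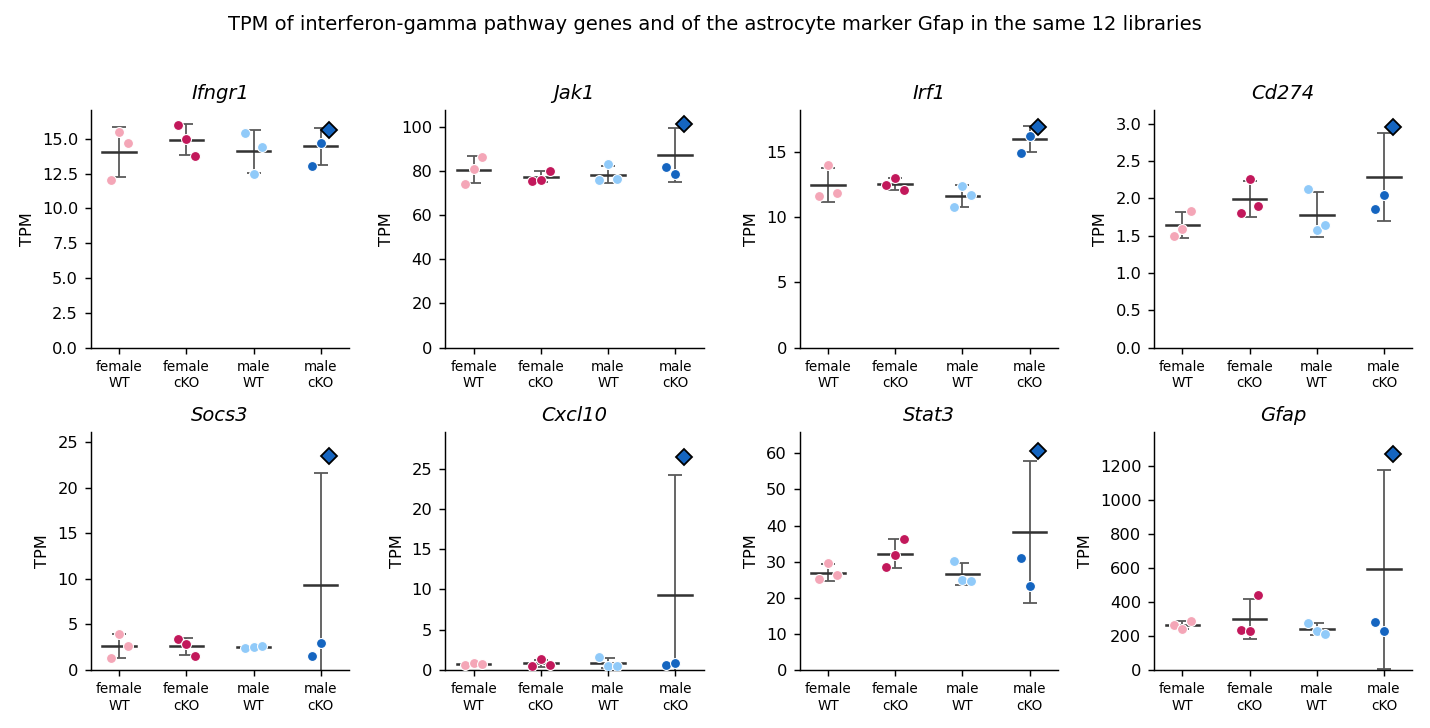
TPM of the receptor *Ifngr1*, the kinase *Jak1*, the factors *Irf1* and *Stat3*, the targets *Cd274* and *Cxcl10*, the inhibitor *Socs3* and the astrocyte marker *Gfap* in the 12 libraries, drawn as for the GTPases. Male cKO replicate 3 (diamond) is far above all other libraries for *Socs3*, *Cxcl10*, *Stat3* and *Gfap*, and *Irf1* is highest in the 3 male cKO libraries.

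Lists of related genes show how far the difference extended. Among 13 other GBP, IRG and GVIN genes tested, 10 were above 0, with a median of 0.27, and 0 passed the nominal rule. Without male cKO replicate 3, where *Tgtp1* had its lowest value (0.724 TPM), 1 passed, *Tgtp1* with a log2 difference of 0.83. *Gbp2b* (0.36) and *Gbp9* (0.27) are GBPs too, and *Gbp9* was the lowest of all libraries in male cKO replicate 3 (0.873 TPM). In the other cKO libraries *Gbp9* was between 1.53 and 1.78 TPM, against 1.13 to 1.43 TPM in WT. Its log2 difference without male cKO replicate 3 was 0.41, under the nominal fold. Of 25 other interferon-gamma targets 20 were above 0 with a median of 0.29, and 0 passed. Those with an unadjusted p under 0.05 were all of antigen presentation by class I molecules. They were the heavy chains *H2-K1* (log2 difference 0.33, adjusted p = 0.381), *H2-D1* (0.30) and *H2-T23* (0.37), and the light chain *B2m* (0.18). For *H2-K1*, 1 of the 25, every cKO library (28.4 to 40.3 TPM) lay above every WT library (20.8 to 27.6 TPM). This was so for 0.572% of all genes and for none of the 9 GTPases.

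Among the antiviral genes that type I interferons induce as well, 6 of 34 (17.6%) passed the nominal rule, against 2 of 9 GTPases (22.2%) and 2.09% of all genes. Of 34 tested, 31 were above 0 with a median of 0.34 (0.29 without male cKO replicate 3), and 6 passed as higher (17.6% of the list), also 6 without that library. Without it 1 gene passed as lower, *Mx2* with a log2 difference of -1.51, named after its value was seen and listed at 0 in the remaining 5 cKO libraries. Among them were *Dhx58*, a regulator of RNA sensing (0.68 on the log2 scale), *Rsad2*, the enzyme viperin (0.72), *Trim30a* (0.82) and *Zbp1*, a sensor of Z-form nucleic acid (1.15). *Isg15*, a ubiquitin-like modifier, had a log2 difference of 0.45 (adjusted p = 0.346), under the nominal fold. Its cKO libraries (6.26 to 7.54 TPM) all exceeded the WT libraries (3.44 to 6.05 TPM), as for 0.572% of all genes. It was the only 1 of the 34 whose genotypes did not overlap. Of 11 genes of ATG8 conjugation and of 10 other dynamin superfamily genes 0 passed, with medians of 0.02 and -0.03. No gene of any of these lists passed the adjusted rule.

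**Figure D5:**
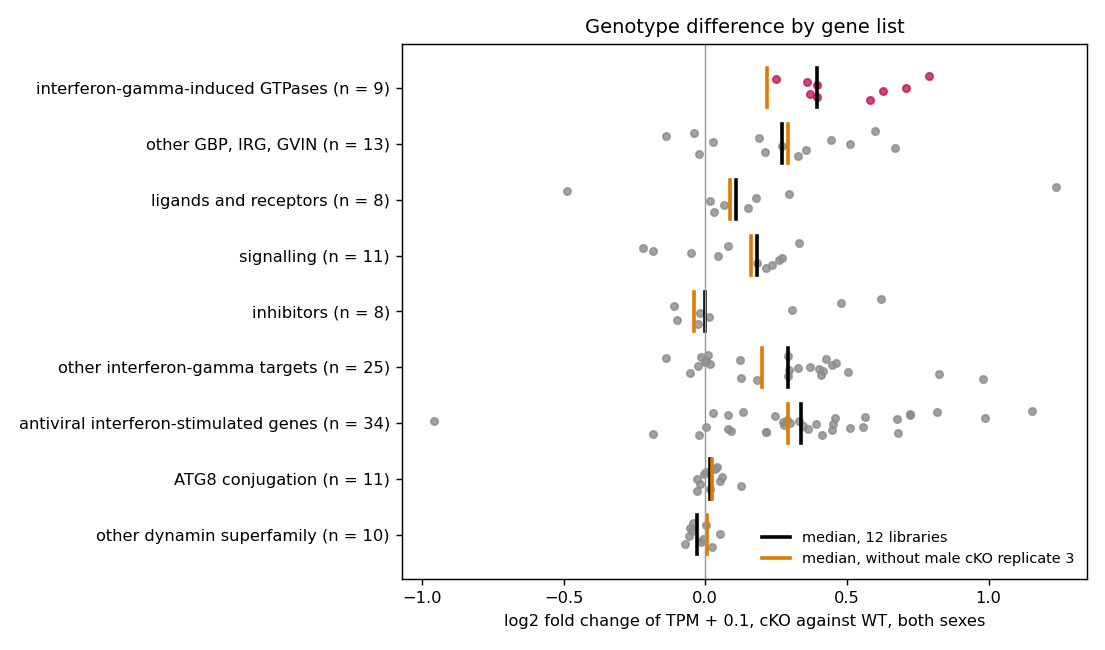
Log2 fold change of each tested gene by list, cKO against WT in both sexes, with the list median for all 12 libraries (black) and without male cKO replicate 3 (orange). The GTPases all lie above 0 with a median of 0.40 that moves to 0.22, and the ATG8 conjugation and dynamin superfamily genes lie around 0.

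In male cKO replicate 3 other genes were far outside the range of the other 11 libraries. The inhibitor *Socs3* was at 23.5 TPM there and between 1.29 and 3.904 TPM elsewhere, and *Stat3* at 60.6 TPM against 23.3 to 36.4 TPM. *Cxcl10*, *Ccl2*, *Gfap*, *Gja1* and *P2ry12* were picked after their values were seen. The chemokine *Cxcl10* was at 26.5 TPM against 0.438 to 1.61 TPM, and the chemokine *Ccl2* at 4.69 TPM against 0.123 to 0.915 TPM. The astrocyte filament gene *Gfap* was at 1267 TPM against 208 to 437 TPM, and the astrocyte gap junction gene *Gja1* at 68.6 TPM against 116 to 151 TPM. The microglial receptor *P2ry12* was at 8.21 TPM against 16.5 to 29.2 TPM. Other microglia markers did not all go this way. *Cx3cr1* and *Siglech* were also lowest in this library, *C1qa* (93.5 TPM) and *Tmem119* (23.3 TPM) were above all WT libraries, and the rest were within the range of the other libraries. Summed over the list of 6 astrocyte markers the level was 2222 TPM there and at most 1658 TPM in the other cKO libraries. *Gfap* carried this sum, and the other 5 markers together were at 954 TPM there, below the 1043 to 1222 TPM of the other 11 libraries. Of these 5, *Aqp4* was high there too, at 99.4 TPM against 43.3 to 57.3 TPM. *Gja1* and *Aldoc* were below all other libraries, and *Aldh1l1* and *Slc1a3* were within their range. The part of these genes in the level of the GTPases was not tested.

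Summed markers of the other cell types overlapped between genotypes. The 10 microglia markers summed to between 317 and 362 TPM in WT and between 325 and 391 TPM in cKO, with 325 TPM, the lowest cKO value, in male cKO replicate 3. Markers of T and NK cells, the main sources of interferon gamma, summed to between 4.42 and 6.94 TPM in WT and 5.04 and 8.31 TPM in cKO, with the T cell gene *Cd3e* at 0.173 TPM or less and *Gzmb* listed at 0 in all 12 libraries. *Lck* held the largest part of these sums, at 2.52 to 4.45 TPM in WT and 2.10 to 5.54 TPM in cKO. Border macrophage markers (2.84 to 7.29 and 3.28 to 10.4 TPM), neutrophil and monocyte markers (0.445 to 2.70 and 0.594 to 6.51 TPM), endothelial markers (164 to 186 and 165 to 186 TPM), erythroid markers (688 to 1547 and 799 to 1350 TPM), oligodendrocyte markers (2034 to 4103 and 2298 to 3722 TPM) and meningeal markers (99.8 to 171 and 51.7 to 257 TPM) also overlapped between WT and cKO. In the neutrophil and monocyte list 1 of 4 tested genes passed the nominal rule as higher, *S100a9*, at 0 to 0.428 TPM in WT and 0 to 3.89 TPM in cKO, with 4 of 6 cKO libraries above the highest WT value and 0.634 TPM in male cKO replicate 3. Choroid plexus markers ranged from 70.0 to 3048 TPM in WT and from 46.5 to 4458 TPM in cKO. Their part in the level of the GTPases was not tested.

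Among all other genes tested, *Cd274*, which encodes the immune checkpoint ligand PD-L1 and is itself an interferon-gamma target, had the pattern most like the mean of the 9 members over the 12 libraries (Pearson r = 0.944). It was at 1.499, 1.59 and 1.83 TPM in female WT, 1.80, 2.26 and 1.90 in female cKO, 2.12, 1.58 and 1.64 in male WT and 1.85, 2.05 and 2.96 in male cKO. The next by this measure were *Flnc* (0.923), *Asap3* (0.912), *Msl3* (0.912), *Glra1* (0.910), *Nras* (0.908), *Mall* (0.907), *Ifit3b* (0.903), *Cd63* (0.902) and *Srsf4* (0.897), all highest in male cKO replicate 3. Without that library *Cd274* remained among the 10 closest (r = 0.867) and none of the other 9 did. The members varied together as well, with a median r of 0.70 over their 36 pairs in 12 libraries, 0.51 without male cKO replicate 3 and 0.34 in the 6 WT libraries alone. The genes compared come from the same libraries and tissue pieces, and the correlations are given as descriptions.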

How the data were processed

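Poly-A selected hippocampal RNA from 12 libraries was sequenced by the study. The authors deposited 1 table of TPM, which the labels credit to kallisto and mm10, while the methods of the paper describe STAR on GRCm38 followed by Salmon, so which of them wrote the table is not stated. The paper states a read depth per sample, but TPM as deposited keeps no read counts, so counting error is unknown here. A test on log values took the place of the study's count test. TPM of a library summed to between 825750 and 845553 over the listed genes. Values were analysed as log2(TPM + 0.1), which understates the fold of genes near 0.1 TPM, leaving out genes that averaged under 0.1 TPM. Contrasts were fitted in limma 3.58.1 (R 4.3.3; trended prior variance, two-sided, Benjamini-Hochberg adjustment over all genes tested), in 2 groups of 6 libraries, or in 4 groups of 3 for single sexes and the interaction. The fits were tested on simulated data with independent noise and no library that stood apart. That test does not bear on the differences reported here.

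Members and lists were chosen with earlier results of these data known. The lists were the GBP and IRG members, other GBP, IRG and GVIN genes, ligands and receptors, signalling, inhibitors, other interferon-gamma targets, antiviral genes, ATG8 conjugation, other dynamin superfamily genes, and markers of hippocampal neurons, microglia, border macrophages, T and NK cells, neutrophils and monocytes, erythroid cells, endothelium, astrocytes, oligodendrocytes, choroid plexus and meninges. Named genes are the members, fixed pathway genes, up to 5 per list with the smallest p, and the 10 most alike to the members. Promoters are RefSeq sequences of GRCm38.p6, and shared 31-base words were counted in GENCODE M21 transcripts. Same-numbered libraries of a sex did not deviate together (correlations between -0.038 and 0.045), so replicate numbers were not used as pairs.

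Alternatives changed 1 choice at a time: the added TPM, the filter, the scaling, the prior variance, a term for sex, blocking on replicate numbers, the libraries of conflicting sex, the name prefix and each library. Leaving out male cKO replicate 3 among the CMV-named libraries, summing *Tgtp1* and *Tgtp2*, and the exact permutation test (difference of mean log2 values, all 924 arrangements of the 12 libraries) were chosen after seeing the data. A gene of the signalling list is not reported here by name.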

Additional observations from a re-analysis of the deposited data

Results flagged for a closer look

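In the 6 cKO libraries the value of male cKO replicate 3 lay apart from the others for 5 of the 9 members. The gap to the next library took 0.842 of the whole cKO range for *Gbp2*, 0.740 for *Gbp7*, 0.634 for *Igtp*, 0.905 for *Irgm1* and 0.859 for *Iigp1*, each above the 95% critical value of Dixon's test. These gaps were taken on TPM and not on the log2 values of the fits, so the number of groups marked may depend on the scale. Of 18 groups of 6 libraries examined (9 members in WT and in cKO) 5 held such a library, all of them male cKO replicate 3, where chance marks about 1 group in 20 and the members are not independent of each other.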

How the results depend on the processing

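In both sexes together, the fold changes of all 9 members stayed above 0 and none passed the adjusted rule under any of the 25 alternatives run. The number passing the nominal rule was 2 as reported. It was 1 with 0.5 TPM added, with quantile normalization and in the CMV-named libraries without male cKO replicate 3, 0 with 1 TPM added, 3 with *Tgtp1* and *Tgtp2* summed, and between 0 (male cKO replicate 3) and 3 (female WT replicate 3 or female cKO replicate 1) when single libraries were left out, with 1 for female cKO replicate 2 or male cKO replicate 2. *Igtp* had an unadjusted p under 0.05 in all 25 and passed the nominal rule in 22, while *Ifi47* passed in 14 and *Tgtp2* in 8. In males the number was 3 as reported, and 1 with no filter, with quantile normalization and with a prior variance without trend. It was 2 with 1 TPM added, with median ratio rescaling and with a replicate block, and 4 without the libraries of conflicting sex. When single libraries were left out it was between 0 (male WT replicate 2 or male cKO replicate 3) and 5 (male WT replicate 1, male cKO replicate 1 or male cKO replicate 2). It was 1 for female WT replicate 1 or 3, male WT replicate 3 or female cKO replicate 3. For female WT replicate 2 or female cKO replicate 1 or 2 it was 2. For the interaction it was 0 as reported and between 0 and 1 (female cKO replicate 2 or male cKO replicate 1) when single libraries were left out. In females small fold changes turned sign. *Gbp2* was 0.00327 with 0.5 TPM and 0.00619 with 1 TPM added, and *Iigp1* was -0.058 without the libraries of conflicting sex. Leaving out single libraries moved the female value of *Gbp2* between -0.18 and 0.27, of *Gbp3* between -0.22 and 0.55, of *Irgm2* between -0.21 and 0.19 and of *Iigp1* between -0.11 and 0.18. It moved the interaction of *Gbp3* between -0.78 and 0.0615, of *Igtp* between -0.52 and 0.0995, of *Iigp1* between -1.12 and 0.0043, of *Ifi47* between -0.66 and 0.0023 and of *Tgtp2* between -0.87 and 0.19. The causes were not tested. With a replicate block, which pairs libraries that share only a number, 2 members passed the nominal rule in both sexes, *Igtp* and *Tgtp2*, and *Ifi47* did not. The read counts behind these low TPM are unknown, so a difference that missed a threshold is not shown to be absent.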
